A study of Mus musculus with 8 samples.

Results

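The genes described here encode the regulators and enzymes of cholesterol, fatty acid and triacylglycerol synthesis in the mouse mammary gland. They were taken from a fixed list of 42 gene symbols, matched to the Entrez Gene IDs of the count table, which lists 24594 genes. The list holds 5 regulators of the SREBP pathway, 19 genes of sterol synthesis (the sterol branch) and 18 genes of fatty acid and glycerolipid synthesis (the fatty acid branch), of which 13 make or modify fatty acids and 5 build glycerolipids. Only the symbols, and no count, decide which rows belong to it, but the symbols were chosen with earlier results of these data known. After a filter on low counts 40 of the 42 genes were tested, and Acacb and Thrsp were left out by it.

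RNA was sequenced from 2 luminal fractions of the mammary gland of untreated wild-type adult C57BL/6J mice, 4 libraries per fraction. Cells were sorted by flow cytometry on EpCAM, CD49f, cKit and CD14 into luminal progenitors (LP, c-Kit high) and mature luminal cells (c-Kit low, called luminal differentiated in the labels). From each sample 500 pg of RNA was amplified as cDNA before library preparation, and whether a library came from 1 animal or from pooled animals is not given in the sources used here. The sample descriptions give the LP and the mature library of each replicate a number in common, without saying what it stands for. The p-values therefore measure the spread between these libraries. In such bulk samples, fewer cells of a type and less RNA per cell cannot be told apart.

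Cholesterol and fatty acids are both built from acetyl-CoA. SREBP transcription factors are made as membrane proteins of the endoplasmic reticulum, where Scap escorts them to the Golgi for cleavage when sterol is low and the Insig proteins hold Scap back when sterol is high. SREBP-2, the product of Srebf2, acts mainly on sterol genes, and the SREBP-1c form of Srebf1 mainly on fatty acid genes, with NF-Y and Sp1 as partner factors. In the mammary gland these pathways are best known for the synthesis of milk fat.

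The libraries held between 4410049 and 7791593 counts on genes, so that 3 counts, used as the floor of detection, corresponded to 0.416 to 0.788 CPM (the count of a gene relative to the scaled total of its library). On the first principal component (50% of the variance) LP and mature libraries lay apart, and mature replicate 3 lay nearest to the LP libraries (32.6, with 56.2 to 86.3 for the other mature and -73.4 to -53.6 for the LP libraries). The summed level of 5 LP marker genes (Kit, Elf5, Cd14, Aldh1a3 and Csn3) was 16171 to 26255 CPM in LP and 343, 582, 1639 and 1063 CPM in mature replicates 1 to 4. By edgeR's quasi-likelihood test 4 of the 5 were higher in LP. Kit and Cd14 encode proteins listed for the sort, though the study's account of these fractions names c-Kit only. The 4 pan-luminal markers summed to 11277 to 12493 CPM in LP and 22792 to 40819 CPM in mature libraries, with 3 of the 4 higher in mature cells. Of the 6 markers of mature hormone-sensing cells, 6 were higher in the mature fraction by edgeR's quasi-likelihood test, and their sum was 347 to 1057 CPM in LP and 4468 to 6382 CPM in mature libraries. Of 11 genes of adipocytes, the lipid-storing neighbours of this epithelium, Cidec and Lep had no count in any library, and Adipoq and Plin1 reached at most 0.263 and 0.433 CPM. Fabp4 was counted in all libraries (0.289 to 6.38 CPM), and Retn reached 4.37 CPM in mature replicate 4. The summed level of the 11 genes was 33.4 to 47.5 CPM in LP and 23.8 to 79.0 CPM in mature libraries, mostly from Lipe (15.4 to 60.7 CPM) and Cidea (4.82 to 31.0 CPM), and the part of adipocytes in the results was not tested. Summed levels were 4.02 to 17.97 CPM in LP and 8.86 to 51.1 CPM in mature libraries for 8 basal markers, 7.35 to 41.7 and 27.0 to 179 for 6 fibroblast markers, 3.05 to 8.63 and 0.984 to 8.08 for 5 endothelial markers, 34.0 to 52.7 and 7.94 to 41.2 for 6 leukocyte markers, and 2.36 to 45.9 and 0.301 to 4.62 for 6 milk protein genes.

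Among the 40 tested genes, 10 differed between the fractions at an adjusted p-value under 0.05 (edgeR quasi-likelihood test, adjusted over all 12816 tested genes). Acat2, Acaca, Scd1, Elovl6 and Dgat1 were higher in LP, and Srebf2, Insig2, Fdft1, Gpam and Dgat2 were higher in mature cells. This share of 25% lay near the 24.7% of all tested genes that differed, made up of 10.9% with the higher level in LP and 13.8% with the higher level in mature cells. The largest differences in each direction were those of Scd1, 8.38-fold higher in LP, and Dgat2, 8.31-fold higher in mature cells. In 12 of the 40 genes the values of the fractions did not overlap (8 higher in LP, 4 higher in mature), where 29.5% of all tested genes showed no overlap. The median log2 fold change (LP over mature, here and throughout) was 0.26 over the 40 genes and 0.00 over all tested genes, and 27 of the 40 were above 0.

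**Figure D1:**
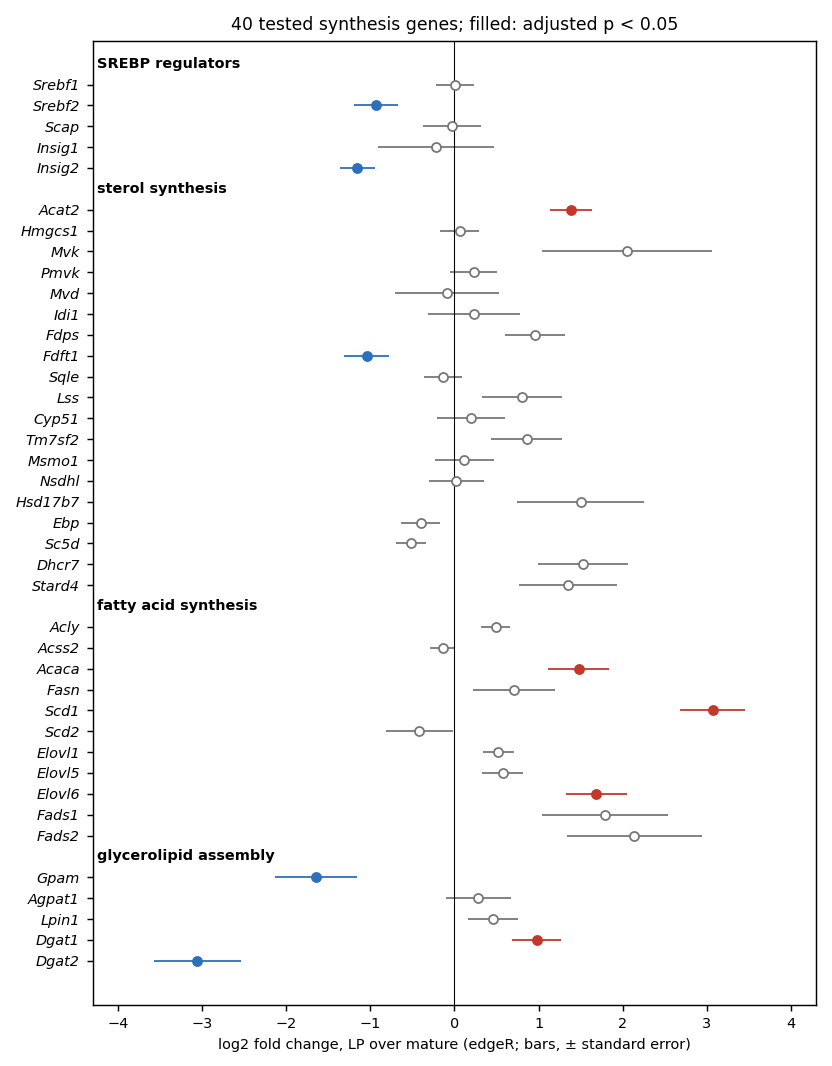
Fitted log2 fold change of LP over mature (x axis, positive is higher in LP) for the 40 tested synthesis genes, grouped by role, with bars of ± standard error from 4 libraries per fraction. Filled points passed an adjusted p-value of 0.05, with Scd1 at 3.07 and Dgat2 at -3.05 as the outermost genes.

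Promoter sequences from RefSeq (GRCm38.p6, from 250 bases before to 50 bases after the start of transcription) were found for 33 of the 42 genes. They were searched on both strands for 4 motifs linked to SREBP, and overlaps between motifs were allowed. The NF-Y box CCAAT stood in a window of 27 of the 33 genes, 14 of 15 of them in the sterol branch, 9 of 13 in the fatty acid branch and 4 of 5 among the regulators. Of the tested genes 43.2% had it, and of all promoters 37.4%. The Sp1 box GGGCGG stood in 25 of the 33 genes, 14 of 15 in the sterol branch and 6 of 13 in the fatty acid branch, against 67.6% of tested genes and 35.7% of all promoters. The E-box CACGTG was found in 6 of the 33 genes, against 11.7% of tested genes and 7.15% of all promoters. The sterol regulatory element TCACNCCAC was found in 1 of the 33 genes, Hmgcs1, against 1.31% of tested genes and 1.24% of all promoters.

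The NF-Y boxes of the genes that were higher in mature cells are shown. None of the genes that were higher in LP and had a window (Acat2, Acaca, Elovl6) held one. The only Acaca window (chr11:84195188-84195487) lay inside the gene, and the sequence at the gene's outer start (chr11:84129635) was not searched. Scd1 and Dgat1, higher in LP, and Fdft1 and Dgat2, higher in mature cells, had no window and were not searched. The called genes of each direction were thus searched only in part, and no comparison between them was tested. Each stretch of 30 bases is read 5′ to 3′ along the gene's strand in GRCm38, with the box in capitals as CCAAT or as its reverse complement ATTGG. The sites are Srebf2 at chr15:82147122-82147151 (+ strand, box 135 bases before the start), Insig2 at chr1:121332708-121332737, chr1:121332618-121332647 and chr1:121332601-121332630 (- strand, boxes 136, 46 and 29 bases before the start) and Gpam at chr19:55127295-55127324 (- strand, box 74 bases before the start). The last line gives the Hmgcs1 element at chr13:119690204-119690233 (+ strand, 137 bases before the start), as the single match to the sterol regulatory element. The bases after this RefSeq start were not found near the start of a GENCODE transcript of Hmgcs1. For the windows printed for Srebf2, Insig2 and Gpam they were found.
Srebf2: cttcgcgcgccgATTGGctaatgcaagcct
Insig2, box at 136: cagttagctctgCCAATtctctgacccctg
Insig2, box at 46: acatcccctgccATTGGtcaccttccacac
Insig2, box at 29: tcaccttccacaCCAATctatattaaaatg
Gpam: ctgaagctttcgATTGGctgatcaagctca
Hmgcs1: cgtcaccgtcTCACCCCACttcccaggtcc

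Of the 5 regulators, Srebf2 and Insig2 were higher in mature cells, and Srebf1, Scap and Insig1 did not pass the test. These are 40% of the regulators, with 24.7% of all tested genes as the background. Of all tested genes, 13.8% were higher in mature cells. Insig2 (Entrez 72999, chr1:121304353-121332662), which encodes the Insig protein that retains Scap in the endoplasmic reticulum, had 129, 107, 153 and 147 CPM in LP replicates 1 to 4 and 346, 381, 244 and 219 CPM in mature replicates 1 to 4. Every mature library lay above every LP library, with mature replicates 1 and 2 the highest. The means were 134 ± 20.6 and 297 ± 78.2 CPM (SD, n = 4 libraries each), a log2 fold change of -1.15 ± 0.211 (SE; edgeR adjusted p = 0.00343). Srebf2 (Entrez 20788, chr15:82147269-82205379), the gene of SREBP-2, had 22.5, 36.4, 47.1 and 48.6 CPM in LP and 86.9, 62.0, 85.8 and 60.1 CPM in mature libraries. The fractions again did not overlap, and LP replicate 1 was the lowest. LP over mature gave a log2 fold change of -0.93 ± 0.257 (edgeR adjusted p = 0.0227), and its call was lost when LP replicate 2, mature replicate 1 or mature replicate 3 was left out, with adjusted p-values of 0.0526 to 0.0649 there.

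Srebf1, the gene of the SREBP-1 forms, had nearly equal means of 32.2 ± 6.51 CPM in LP and 32.1 ± 6.05 CPM in mature cells. Its values were 31.2, 41.3, 30.4 and 25.8 CPM in LP and 36.3, 26.8, 27.0 and 38.3 CPM in mature libraries, and the log2 fold change was 0.00 ± 0.226 (edgeR adjusted p = 0.997). Counts per gene do not separate the 1a and 1c transcripts of Srebf1. Scap had 10.6, 10.1, 14.9 and 18.3 CPM in LP and 20.4, 9.72, 11.3 and 13.4 CPM in mature libraries (log2 fold change -0.03 ± 0.347, edgeR adjusted p = 0.966). Insig1, itself a classic SREBP target, was low in all libraries, with 7.55, 5.89, 2.82 and 9.85 CPM in LP and 12.2, 9.19, 8.37 and 0.753 CPM in mature libraries. It did not pass (log2 fold change -0.22 ± 0.688, edgeR adjusted p = 0.847). Per kilobase of exon, Insig2 stood at 38.5 CPM in LP and 85.6 in mature cells and Insig1 at 2.11 and 2.47, so Insig2 was the more abundant of the pair in both fractions.

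**Figure D2:**
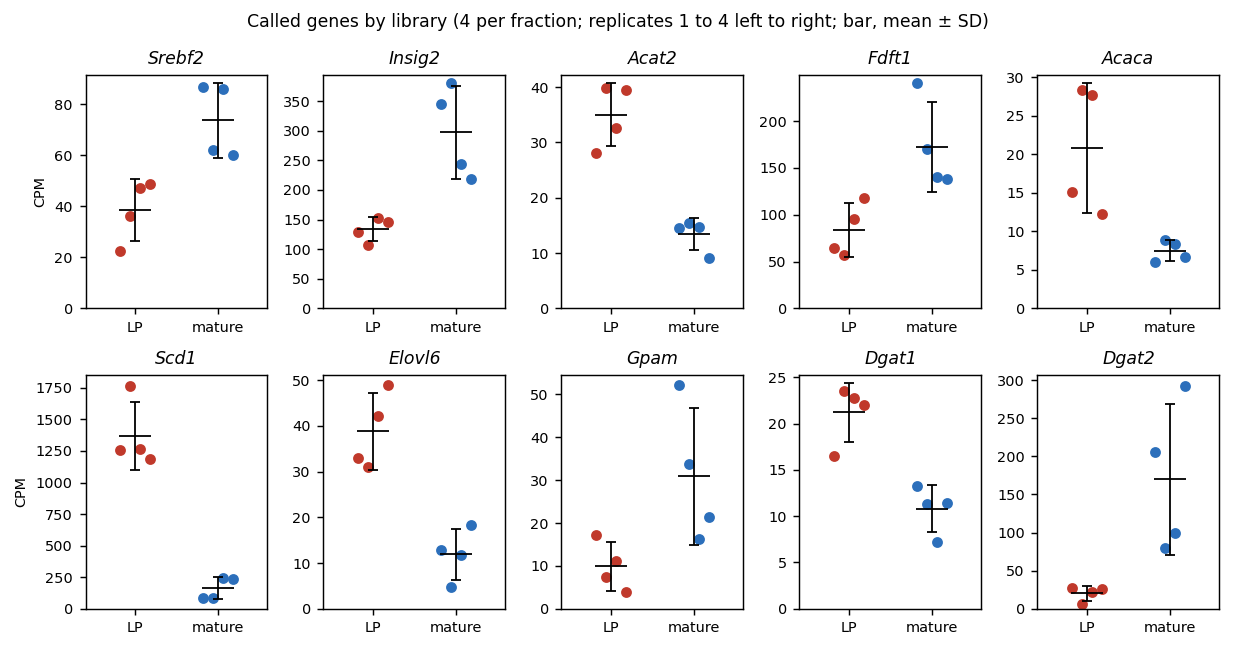
CPM (y axis, from 0, scaled for each gene) of the 10 genes with an adjusted p-value under 0.05 in 4 LP and 4 mature libraries, with black bars for mean ± SD. The fractions do not overlap for 9 of the genes, and for Gpam LP replicate 1 (17.1 CPM) lies above mature replicate 3 (16.3 CPM).

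In the sterol branch 19 of 19 genes were tested, and 2 passed the test in opposite directions, Acat2 in LP and Fdft1 in mature cells. That is 10.5% of the branch, with 24.7% of all tested genes as the background. Log2 fold changes ran from -1.04 to 2.05 with a median of 0.23, and 14 were above 0. The summed level of the branch went the other way, with means of 729 CPM in LP and 814 CPM in mature libraries. It was 656, 654, 661 and 943 CPM in LP and 904, 871, 722 and 759 CPM in mature replicates 1 to 4. The fractions thus overlapped in this sum, with LP replicate 4 the highest library. The first enzymes, which take acetyl-CoA to mevalonate, are encoded in part by Acat2 and Hmgcs1. Acat2 (Entrez 110460, chr17:12943042-12960725), a cytosolic acetoacetyl-CoA thiolase, had 28.2, 39.8, 32.5 and 39.5 CPM in LP and 14.5, 15.5, 14.7 and 9.04 CPM in mature libraries. All LP values lay above all mature values. With a log2 fold change of 1.38 ± 0.255 (edgeR adjusted p = 0.00348), Acat2 passed in 15 of 15 alternative analyses. Of the 51-base stretches of its transcripts, the length of the reads, 40.5% also occur in another gene, mainly its close relative Acat3. Acat3 itself had a log2 fold change of 0.21 ± 0.202 (edgeR adjusted p = 0.488), and the part of such shared reads in the Acat2 difference was not tested.

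Hmgcs1, the HMG-CoA synthase whose promoter holds the sterol regulatory element printed above, had 29.5, 26.2, 39.2 and 33.9 CPM in LP and 28.5, 40.2, 24.1 and 30.9 CPM in mature libraries. Its fractions overlapped fully (log2 fold change 0.06 ± 0.228, edgeR adjusted p = 0.878). Mvk, mevalonate kinase, had 5.95, 2.88, 3.98 and 3.33 CPM in LP and 0, 0, 1.15 and 2.56 CPM in mature libraries. These are 41, 20, 24 and 24 counts in LP and 0, 0, 8 and 17 in mature libraries, and although every LP value was above every mature value, Mvk did not pass the test (log2 fold change 2.05 ± 1.01, edgeR adjusted p = 0.165). A count of 0 in mature replicates 1 and 2 allows up to 0.422 and 0.788 CPM, for counting error only.

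The enzymes from phosphomevalonate to farnesyl diphosphate are encoded by Pmvk, Mvd, Idi1 and Fdps. Pmvk, Mvd and Idi1 had log2 fold changes of 0.23, -0.09 and 0.23 with edgeR adjusted p-values of 0.593 to 0.936. Fdps, farnesyl diphosphate synthase, had 14.8 to 45.5 CPM in LP and 11.8 to 17.8 CPM in mature libraries, with LP replicate 4 the highest. Its log2 fold change of 0.96 ± 0.359 did not pass (edgeR adjusted p = 0.0759), and 63.8% of its 51-base stretches occur in other genes, among them pseudogenes.

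Fdft1 (Entrez 14137, chr14:63145150-63181687) encodes squalene synthase, the first enzyme committed to sterols. It had 64.0, 57.2, 95.1 and 118 CPM in LP and 240.5, 169.9, 140.0 and 138 CPM in mature libraries. The fractions did not overlap, and LP replicate 4 came closest to the mature libraries. Fdft1 had a log2 fold change of -1.04 ± 0.266 (edgeR adjusted p = 0.0164). The call was lost without LP replicate 1 (adjusted p = 0.0531) or LP replicate 2 (0.0506), and Fdft1 passed in 13 of 15 alternatives. Its exons share 774 bases (18.3%) with Ctsb on the opposite strand, a gene at 1269 to 2513 CPM whose log2 fold change was 0.21 (edgeR adjusted p = 0.500). Whether the counting used strand is not given in the sources used here.

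Downstream of squalene, Sqle, Lss, Cyp51, Msmo1, Nsdhl, Hsd17b7, Ebp and Sc5d did not pass. Sqle, squalene epoxidase, had means of 54.9 ± 9.62 CPM in LP and 60.2 ± 15.9 CPM in mature cells. Ebp, a sterol isomerase, and Sc5d, a sterol desaturase, had negative log2 fold changes of -0.40 ± 0.229 and -0.52 ± 0.182 (edgeR adjusted p = 0.227 and 0.0614). Lss, lanosterol synthase, and Hsd17b7, a sterol ketoreductase, had positive ones of 0.80 ± 0.480 and 1.5 ± 0.757 (edgeR adjusted p = 0.253 and 0.176). Cyp51, Msmo1 and Nsdhl, which remove methyl groups from lanosterol, lay between 0.02 and 0.20. In Cyp51 and Msmo1, LP replicate 4 was the highest library of all, at 47.0 and 149 CPM.

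Tm7sf2, a sterol reductase, had 10.5, 6.47, 6.31 and 5.27 CPM in LP and 3.80, 3.94, 3.90 and 4.07 CPM in mature libraries. The fractions did not overlap, but the log2 fold change of 0.86 ± 0.418 did not pass (edgeR adjusted p = 0.161). Of its 51-base stretches 19.4% also occur in Vps51, which overlaps it on the same strand and had a log2 fold change of 0.86 ± 0.269 (edgeR adjusted p = 0.0391).

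Dhcr7, the last reductase before cholesterol, and Stard4, a carrier of sterol between membranes, were low in mature replicates 1 and 2 and higher in replicate 3. Dhcr7 had 19.5, 24.4, 43.5 and 20.1 CPM in LP and 4.08, 4.99, 21.2 and 6.63 CPM in mature libraries. Only mature replicate 3 reached into the LP range. Its log2 fold change of 1.53 ± 0.529 did not pass in the quasi-likelihood test without a block (edgeR adjusted p = 0.0579). With all libraries it did pass with a replicate block (1.77), with the likelihood ratio test, with DESeq2 and with a minimum of 10 counts in every library, and adjusted p ranged from 0.00267 to 0.158 over 15 alternatives. Stard4 had 17.6, 11.2, 18.1 and 22.1 CPM in LP and 1.55, 2.89, 13.3 and 9.04 CPM in mature libraries (log2 fold change 1.35 ± 0.586, edgeR adjusted p = 0.120). Here too mature replicate 3 was the one that overlapped with LP. Without mature replicate 3 both genes passed, with log2 fold changes of 2.38 for Dhcr7 and 1.94 for Stard4 (edgeR adjusted p = 0.00267 and 0.0366). Sc5d also passed without this library, at -0.60 (edgeR adjusted p = 0.0282). With these the sterol branch held 5 called genes without mature replicate 3 and 1 without LP replicate 1 or LP replicate 2.

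**Figure D3:**
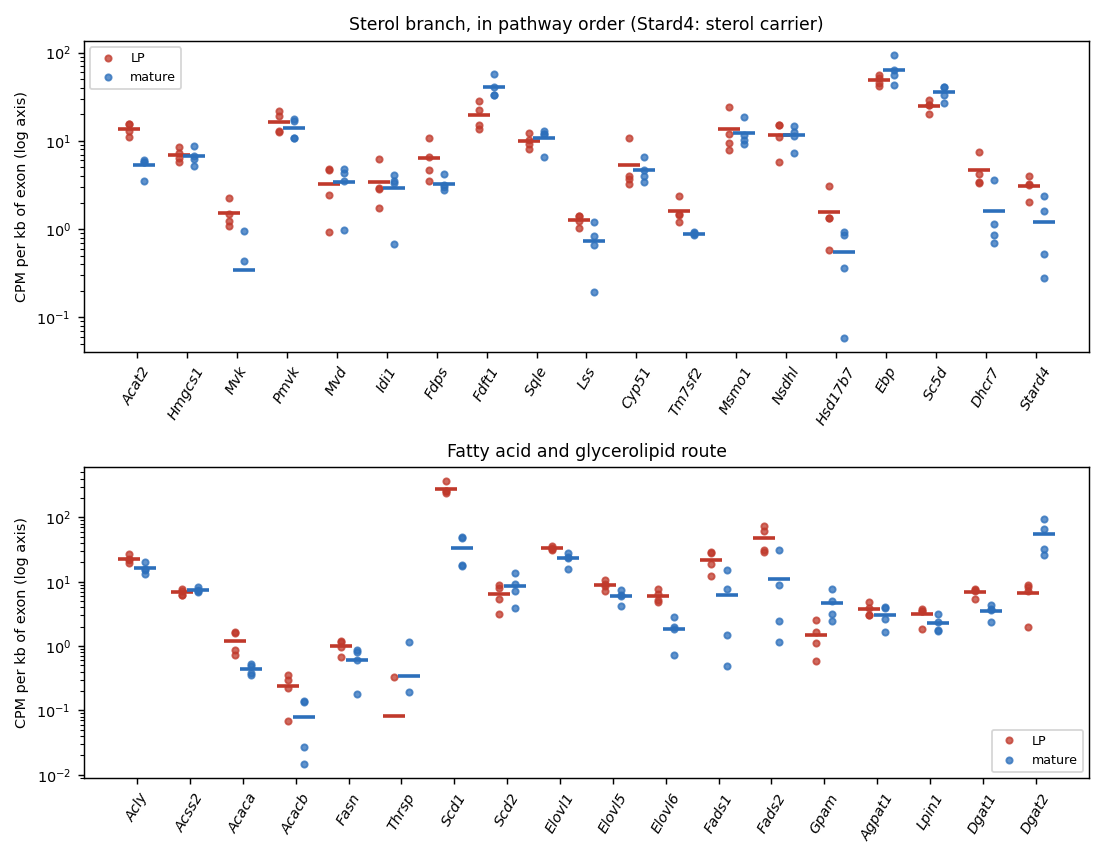
CPM per kilobase of exon (y axis, log scale) of the sterol branch (upper panel) and the fatty acid branch (lower panel) in each of 4 LP (red) and 4 mature (blue) libraries, with short bars for fraction means. Libraries at 0 (Mvk and Thrsp) cannot be drawn on a log axis but are in the means, and Scd1 in LP (mean 279.9) is the highest level shown.

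Levels between genes were compared per kilobase of exon. In the sterol branch Ebp was the most abundant transcript in both fractions, at 48.5 CPM per kilobase in LP and 64.2 in mature cells. Sc5d (24.9 and 35.6) and Fdft1 (19.8 and 40.7) followed in the means. Lss (1.27 and 0.726) and Mvk (1.51 and 0.347) were among the lowest. In the fatty acid branch Scd1 led in LP (279.9), followed by Fads2 (48.7) and Elovl1 (33.2), whereas Dgat2 led in mature cells (55.1), followed by Scd1 (33.4) and Elovl1 (23.1). Within the mature fraction the values of Dgat2 and Scd1 overlapped between libraries, so the order of these 2 genes did not hold beyond the spread. The same was true of Scd1 and Elovl1 in mature cells and of Fads2 and Elovl1 in LP. In LP replicates 1 and 2, Fads2 lay below Elovl1. Fasn, fatty acid synthase, was low in both fractions at 1.00 and 0.617 CPM per kilobase.

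In the fatty acid branch 16 of 18 genes were tested, and 6 of them (37.5%, against 24.7% of all tested genes) passed. The 4 that were higher in LP were Acaca, Scd1, Elovl6 and Dgat1, and the 2 that were higher in mature cells were Gpam and Dgat2. The median log2 fold change was 0.55, and 12 were above 0. Among the 11 tested genes that make or modify fatty acids, 3 passed (27.3%, near the 24.7% of all tested genes), with a median of 0.70. These 3 were higher in LP, and none was higher in mature cells at this threshold. Of all tested genes, 10.9% were higher in LP and 13.8% in mature cells. Among the 5 glycerolipid genes 1 was higher in LP and 2 were higher in mature cells (60% called), with a median of 0.28.

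Acetyl-CoA for both pathways is supplied by Acly, from citrate, and by Acss2, from acetate. Acly had 119, 102, 143 and 114 CPM in LP and 70.0, 79.1, 83.0 and 108 CPM in mature libraries. Only mature replicate 4 lay within the LP range, and the log2 fold change of 0.49 ± 0.177 did not pass (edgeR adjusted p = 0.0689). Acss2 had means of 69.3 ± 7.46 CPM in LP and 76.4 ± 6.29 CPM in mature cells (log2 fold change -0.14 ± 0.150, edgeR adjusted p = 0.533).

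Acaca (Entrez 107476, chr11:84129635-84401651) encodes acetyl-CoA carboxylase 1, the rate-limiting enzyme of fatty acid synthesis. It had 15.1, 28.3, 27.7 and 12.2 CPM in LP and 6.05, 8.93, 8.37 and 6.63 CPM in mature libraries. All LP values were above all mature values, with LP replicates 2 and 3 the highest. Acaca had a log2 fold change of 1.48 ± 0.363 (edgeR adjusted p = 0.0137), and the call was lost in 1 of 15 alternatives, without LP replicate 2. Of its 51-base stretches 48.9% also occur elsewhere, mainly in the processed pseudogene Gm5182, so its count depends on how such reads were assigned. Acacb, the carboxylase of the mitochondrial membrane, was not tested and had 20, 15, 4 and 25 counts in LP and 1, 1, 9 and 9 in mature libraries.

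Fasn had 10.6, 7.33, 12.6 and 13.3 CPM in LP and 6.75, 8.93, 9.38 and 1.96 CPM in mature libraries. The fractions overlapped, and the log2 fold change of 0.70 ± 0.488 did not pass (edgeR adjusted p = 0.325). Thrsp, a regulator of lipogenesis, was near the floor with 5, 0, 0 and 0 counts in LP and 3, 0, 0 and 17 in mature libraries, and was not tested.

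Scd1 (Entrez 20249, chr19:44394450-44407709) encodes the stearoyl-CoA desaturase that makes oleate and palmitoleate. It had 1254, 1769, 1266 and 1188 CPM in LP and 84.7, 88.3, 247 and 233 CPM in mature libraries. The lowest LP library was thus well above the highest mature library, and within the mature fraction replicates 3 and 4 lay above replicates 1 and 2. Means were 1369 ± 269 and 163 ± 88.8 CPM (SD, n = 4 libraries each), and the log2 fold change was 3.07 ± 0.384 (edgeR adjusted p = 0.000587). It passed in 15 of 15 alternatives, with log2 fold changes of 2.86 to 3.36. Its relative Scd2 did not pass the test. It had 29.0, 17.4, 49.3 and 43.1 CPM in LP and 38.7, 21.3, 74.6 and 50.2 CPM in mature libraries (log2 fold change -0.42 ± 0.397, edgeR adjusted p = 0.482). Of the other relatives of Scd1, Scd3 was higher in LP (log2 fold change 1.74 ± 0.398, edgeR adjusted p = 0.00993). Scd4 did not pass (2.13 ± 0.748, edgeR adjusted p = 0.0610). Only 4.48% of the 51-base stretches of Scd1 and 3.89% of those of Scd2 occur in other genes.

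Elovl6 (Entrez 170439, chr3:129532386-129638495), the elongase that takes palmitate to stearate, had 33.0, 31.1, 42.2 and 49.0 CPM in LP and 12.8, 4.73, 11.8 and 18.4 CPM in mature libraries. The fractions did not overlap, with mature replicate 2 the lowest. The log2 fold change was 1.68 ± 0.361 (edgeR adjusted p = 0.00732), and it passed in 15 of 15 alternatives. Elovl1, an elongase of very long chains, had 91.3, 87.5, 98.6 and 84.6 CPM in LP and 66.4, 43.3, 64.7 and 77.4 CPM in mature libraries. Here the fractions did not overlap either, but the log2 fold change of 0.52 ± 0.187 did not pass (edgeR adjusted p = 0.0655). Elovl5, an elongase of polyunsaturated chains, had means of 31.4 ± 5.16 and 21.1 ± 4.61 CPM (log2 fold change 0.57 ± 0.241, edgeR adjusted p = 0.110).

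Fads1 and Fads2, the delta-5 and delta-6 desaturases of polyunsaturated fatty acids, are neighbours on chromosome 19 and varied widely between mature libraries. Fads2 had 95.8, 102, 241 and 203 CPM in LP and 3.80, 8.14, 103 and 29.5 CPM in mature libraries. Mature replicate 3 overlapped with LP replicates 1 and 2, and replicates 1 and 2 of the mature fraction were far below all others. Fads1 followed the same split, with 89.9, 58.9, 132 and 137 CPM in LP and 7.17, 2.36, 72.5 and 37.5 CPM in mature libraries. In the quasi-likelihood test of all libraries without a block neither passed, with log2 fold changes of 2.14 ± 0.800 for Fads2 and 1.79 ± 0.747 for Fads1 (edgeR adjusted p = 0.0760 and 0.107). With a replicate block both passed with all libraries, at 2.97 and 2.53 (edgeR adjusted p = 0.00703 and 0.0170), and Fads2 also passed with the likelihood ratio test and with a minimum of 10 counts in every library. Without mature replicate 3 both passed at 3.53 and 2.72 (edgeR adjusted p = 0.00414 and 0.0206). Over all alternatives adjusted p ranged from 0.00414 to 0.160 for Fads2 and from 0.0170 to 0.205 for Fads1.

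Mature replicate 3 also had the highest LP marker level of the mature libraries. Kit was at 179 CPM there and at 42.7, 41.2 and 73.5 CPM in mature replicates 1, 2 and 4, and Elf5, a transcription factor of progenitors, at 112 CPM with 25.7 to 44.0 CPM in the other mature libraries. Cd14 and Csn3 were also highest in mature replicate 3 among the mature libraries. Aldh1a3 was not, with 354 CPM in mature replicate 3 and 378 CPM in mature replicate 4. As a share of the LP mean, the summed LP markers in mature replicate 3 amounted to 7.67%, Kit to 27.2%, Elf5 to 51.6% and Cd14 to 2.28%. Fads1, Fads2, Dhcr7 and Stard4 stood at 69.3%, 64.1%, 79.0% and 77.1% of their LP means in the same library, and Scd1 at 18.03%. Elovl6 stood at 30.5% there, and at 33.0%, 12.2% and 47.4% in mature replicates 1, 2 and 4. Of the called genes higher in LP, Scd1 had its highest mature value in mature replicate 3, and Acat2, Acaca, Elovl6 and Dgat1 did not. The part of LP cells in these values was not tested. Basal markers were also highest in mature replicate 3 (51.1 CPM in sum), and their part was not tested.

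**Figure D4:**
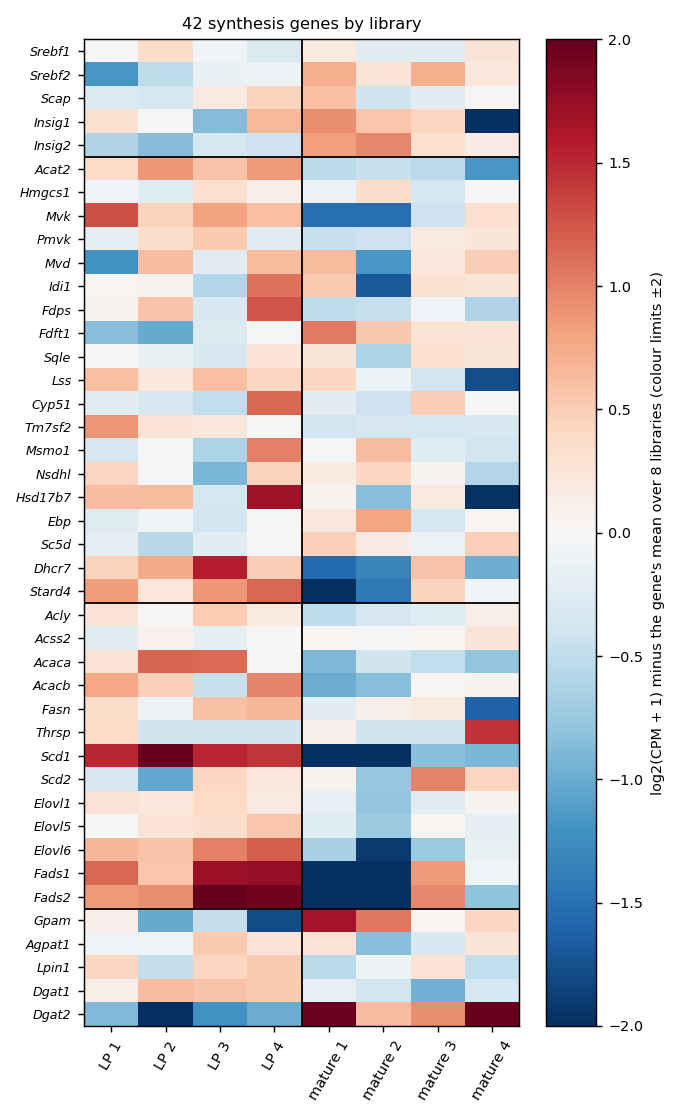
Log2 of CPM plus 1 minus the gene's mean over the 8 libraries (colour, red above and blue below the mean, limits ±2) for the 42 synthesis genes (rows, in order of role) in 4 LP and 4 mature libraries (columns). Fads1, Fads2, Dhcr7 and Stard4 are lowest in mature replicates 1 and 2, while Scd1 is high in all 4 LP libraries and Dgat2 in all 4 mature libraries.

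Triacylglycerol is built from glycerol-3-phosphate by acyltransferases, a phosphatase and a last acylation by Dgat1 or Dgat2. These last enzymes, which are not related in sequence, had log2 fold changes of opposite sign. Dgat2 (Entrez 67800, chr7:99153663-99182713) had 27.9, 6.18, 22.1 and 25.7 CPM in LP and 206, 80.1, 100.04 and 293 CPM in mature libraries. Every mature library was above every LP library, and mature replicates 1 and 4 were the highest. Means were 20.5 ± 9.81 and 169.8 ± 98.9 CPM (SD, n = 4 libraries each), and the log2 fold change was -3.05 ± 0.512 (edgeR adjusted p = 0.00226), called in 15 of 15 alternatives.

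Dgat1 (Entrez 13350, chr15:76502012-76512021) had 16.6, 23.6, 22.7 and 22.1 CPM in LP and 13.2, 11.3, 7.22 and 11.5 CPM in mature libraries. The fractions did not overlap, and LP replicate 1 came closest to the mature libraries. The log2 fold change was 0.98 ± 0.290 (edgeR adjusted p = 0.0313), and the call was lost with a replicate block (adjusted p = 0.0673) and without LP replicate 2, 3 or 4 (0.0665 to 0.0836), within a range of 0.00535 to 0.0836 over 15 alternatives. Per kilobase of exon the LP fraction had 6.95 CPM of Dgat1 and 6.63 of Dgat2, which did not differ beyond the spread between libraries, whereas the mature fraction had 3.53 and 55.1.

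Gpam (Entrez 14732, chr19:55067635-55127319), the mitochondrial glycerol-3-phosphate acyltransferase of the first step, had 17.1, 7.33, 11.1 and 3.88 CPM in LP and 52.2, 33.9, 16.3 and 21.4 CPM in mature libraries. Its fractions overlapped slightly, LP replicate 1 being above mature replicate 3. The log2 fold change was -1.65 ± 0.489 (edgeR adjusted p = 0.0311), and the call held in 10 of 15 alternatives, being lost without LP replicate 2, 3 or 4 or mature replicate 1 or 2 (adjusted p = 0.0612 to 0.102). Agpat1, the next acyltransferase, and Lpin1, a phosphatidate phosphatase, had log2 fold changes of 0.28 ± 0.382 and 0.46 ± 0.297 (edgeR adjusted p = 0.632 and 0.287).

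The fibroblast gene Dcn was at 132 and 154 CPM in mature replicates 1 and 2. In the other 6 libraries it was at 1.53 to 24.7 CPM. Pdgfra was at 0.562 and 16.3 CPM and Lum at 2.67 and 5.52 CPM in mature replicates 1 and 2. Both were highest of all libraries in replicate 2. Col1a1 had no count in mature replicates 1 and 2, Col1a2 was highest in mature replicate 3, and Col3a1 was highest in LP replicate 3. Gpam, Insig2 and Fdft1 had their highest values in mature replicates 1 and 2. In mature replicates 3 and 4 Insig2 (244 and 219 CPM) and Fdft1 (140.0 and 138 CPM) were still above all LP libraries. The part of other cells in these differences was not tested.

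Beyond the 42 genes, 97 further genes of lipid metabolism were taken as 6 lists, of which 89 were tested. Of these, 36 passed (40.4%, against 24.7% of all tested genes), 25 of them higher in LP and 11 in mature cells, with a median log2 fold change of 0.28. By list, in the order below, 30.8%, 70%, 45%, 35.7%, 41.7% and 30% of the tested genes passed, as a description without a test of the lists. The lists were chosen with earlier results of these data known.

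Among 13 tested genes of SREBP processing and its partner factors, 2 were higher in LP and 2 in mature cells, with a median of -0.22. Among the subunits of NF-Y, the factor that binds CCAAT, log2 fold changes of both signs occurred. Nfya had 17.0 to 22.8 CPM in LP and 8.02 to 9.72 CPM in mature libraries (log2 fold change 1.08 ± 0.275, edgeR adjusted p = 0.0160), whereas Nfyb had 51.8 to 62.7 CPM in LP and 70.9 to 159 CPM in mature libraries (-1.09 ± 0.234, edgeR adjusted p = 0.00742). The call of Nfya was lost without LP replicate 4. Erlin2, a protein of sterol-regulated degradation in the endoplasmic reticulum, was higher in LP (0.93 ± 0.175, edgeR adjusted p = 0.00375). Mid1ip1, which promotes polymerization of acetyl-CoA carboxylase, was higher in mature cells (-0.84 ± 0.178, edgeR adjusted p = 0.00690).

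Of 10 tested further genes of the isoprenoid and sterol route, 6 were higher in LP and 1 was higher in mature cells, with a median of 0.90. Cyb5r3, a cytochrome b5 reductase that supplies electrons to desaturation and sterol demethylation, had a log2 fold change of 0.81 ± 0.155 (edgeR adjusted p = 0.00404). Nus1, a subunit of the dolichol-forming prenyltransferase, was at 1.00 ± 0.218 (edgeR adjusted p = 0.00795), Erg28, a scaffold of sterol demethylation, at 1.00 ± 0.229 (0.0101), and Lbr, a nuclear envelope protein with sterol reductase activity, at 1.31 ± 0.312 (0.0119).

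Of 20 tested further genes of fatty acid supply, activation and elongation, 7 were higher in LP and 2 in mature cells, with a median of 0.86. Hsd17b12, the ketoreductase of chain elongation, had 129 to 213 CPM in LP and 59.5 to 70.3 CPM in mature libraries (log2 fold change 1.32 ± 0.189, edgeR adjusted p = 0.00102). Hacd3, a dehydratase of the same elongation cycle, was at 1.40 ± 0.273 (edgeR adjusted p = 0.00460). Acsl1, which activates long-chain fatty acids, had 87.1 to 113 CPM in LP and 11.5 to 38.0 CPM in mature libraries (2.25 ± 0.358, edgeR adjusted p = 0.00172), with mature replicate 3 again the highest mature library. Me1, malic enzyme, a source of NADPH for lipid synthesis, was at 0.99 ± 0.175 (edgeR adjusted p = 0.00283).

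Of 14 tested further genes of glycerolipid assembly, 2 were higher in LP and 3 in mature cells, with a median of -0.07. Lpin2, a phosphatidate phosphatase related to Lpin1, had 38.8, 20.6, 34.5 and 14.8 CPM in LP and 229, 293, 119.5 and 74.0 CPM in mature libraries. All mature values exceeded all LP values, with a log2 fold change of -2.72 ± 0.449 (edgeR adjusted p = 0.00212). Mogat2, a monoacylglycerol acyltransferase of the same gene family as Dgat2, had 0 to 0.145 CPM in LP, below the floor of 3 counts, and 1.73 to 7.62 CPM in mature libraries (edgeR adjusted p = 0.00264), and no fold is given for it. Gpat4, a glycerol-3-phosphate acyltransferase of the endoplasmic reticulum, and Chpt1, which makes phosphatidylcholine, were higher in LP at 0.74 ± 0.187 and 1.04 ± 0.263 (edgeR adjusted p = 0.0160 and 0.0163), the former losing its call without LP replicate 4 and the latter without LP replicate 2. For the first acylation, Gpam and Gpat4 thus passed the test in opposite directions.

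**Figure D5:**
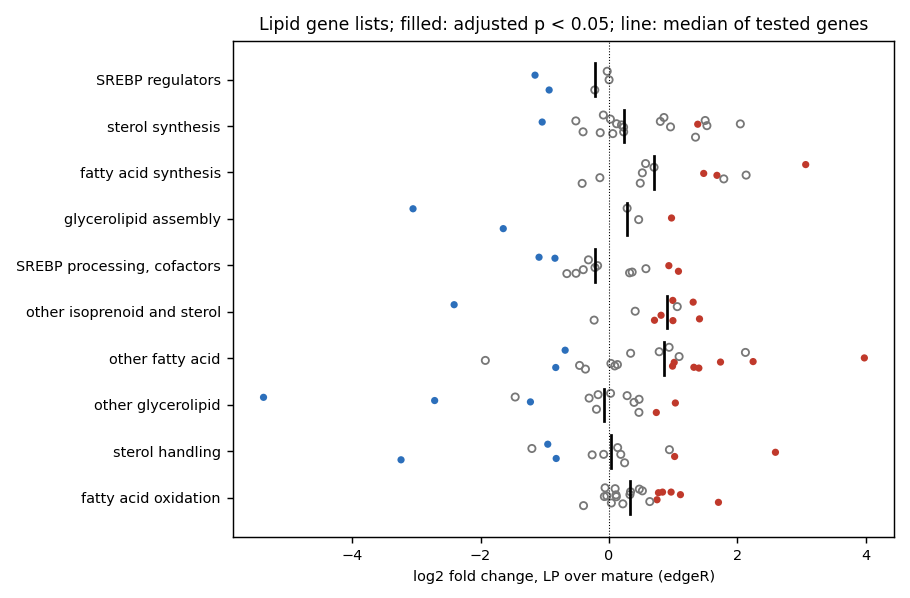
Log2 fold change of LP over mature (x axis) for each tested gene of the 4 member groups and the 6 further lipid gene lists (rows, points spread vertically at random), with filled points for an adjusted p-value under 0.05 and black lines for list medians. The further sterol and fatty acid lists have medians of 0.90 and 0.86, and the oxidation list, with 30% of its genes called against 24.7% of all tested genes, has a median of 0.33.

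Of 12 tested genes of sterol handling, 2 were higher in LP and 3 in mature cells, with a median of 0.03. Vldlr, a lipoprotein receptor, had 46.9 to 74.9 CPM in LP and 1.12 to 16.7 CPM in mature libraries (log2 fold change 2.60 ± 0.550, edgeR adjusted p = 0.00690). Soat1, which esterifies cholesterol for storage, had 6.39, 3.45, 0.498 and 0.277 CPM in LP and 23.2, 22.6, 26.9 and 28.8 CPM in mature libraries (-3.24 ± 0.734, edgeR adjusted p = 0.00945). The mature libraries were close together, and LP replicates 3 and 4 were at or below the floor of 3 counts. Npc2 and Stard3, both of which bind cholesterol at late endosomes, were higher in mature cells at -0.82 ± 0.194 and -0.95 ± 0.230 (edgeR adjusted p = 0.0113 and 0.0126).

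Of 20 tested genes of fatty acid oxidation, 6 (30%, near the 24.7% of all tested genes) passed, all of them higher in LP, with a median of 0.33. Acadm, the medium-chain acyl-CoA dehydrogenase, had 90.2 to 121 CPM in LP and 21.8 to 42.4 CPM in mature libraries (log2 fold change 1.71 ± 0.234, edgeR adjusted p = 0.000859). Acadvl, the very-long-chain dehydrogenase, was at 0.84 ± 0.149 (edgeR adjusted p = 0.00298), Etfdh, which passes electrons from these dehydrogenases to ubiquinone, at 1.11 ± 0.226 (0.00559), and the peroxisomal thiolase Acaa1a at 0.77 ± 0.168 (0.00773). Each of these 4 genes passed in 15 of 15 alternatives and showed no overlap between the fractions.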

How the data were processed

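The authors trimmed 51-bp single-end reads with cutadapt and aligned them to mm10 with bowtie2, and the submitters' processing notes name cutadapt 4.2 and Bowtie2 2.3.5.1. The deposited values are raw counts per Entrez Gene ID without normalization. The counting program, its annotation and its use of strand are not given in the sources used here. Symbols came from RefSeq (24570 of 24594 IDs matched), exon lengths and overlaps from GENCODE (21357 IDs).

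All 8 libraries were compared with edgeR 4.0.16 (R 4.3.3), using TMM factors, filterByExpr by fraction, the quasi-likelihood F-test without a block and Benjamini-Hochberg adjustment over 12816 genes. CPM use TMM-scaled library sizes with no added count, and SE is the absolute log2 fold change divided by the square root of F. Libraries of a fraction all differed from each other beyond counting noise. The 15 alternatives included DESeq2 1.42.0. The study's methods state 3 biological replicates, whereas 4 libraries per fraction were used here. Members, lists and tests were chosen with earlier results of these data known. All members were named, with library values for called, non-overlapping and regulator genes, and up to 4 called genes of each further list by smallest p. Scd3 and Scd4 were named in addition, as relatives of Scd1. Promoter stretches were shown for called genes holding a motif, and Hmgcs1 was added after its match was seen. A result for 1 gene of the further lists is not reported here. Protein identity between paralogs was not analysed here.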

Additional observations from a re-analysis of the deposited data

Results flagged for a closer look

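In 8 of the 84 sets of 4 libraries (42 genes in 2 fractions) the highest or lowest library stood apart from the other libraries of its fraction, its gap to the nearest of them relative to the whole range exceeding Dixon's critical value, and chance gives about 4.2 such sets. In the mature fraction these were Acat2 in replicate 4 (9.04 CPM, the lowest), Sqle in replicate 2 (36.5 CPM, the lowest), Dhcr7 in replicate 3 (21.2 CPM, the highest) and Thrsp in replicate 4 (2.56 CPM, the highest). In the LP fraction they were Cyp51 in replicate 4 (47.0 CPM, the highest), Scd1 in replicate 2 (1769 CPM, the highest), Lpin1 in replicate 2 (17.5 CPM, the lowest) and Thrsp in replicate 1 (0.726 CPM, the highest, with no count in the other LP libraries). Without the library that stood apart, Acat2 and Scd1 were still called, Sqle, Cyp51 and Lpin1 were still not called, and Dhcr7 became called.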

How the results depend on the processing

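The 10 genes called with all libraries became 5 to 14 when 1 library was left out, with 5 without LP replicate 2 and 14 without mature replicate 3, and 10 to 14 under the other alternatives. In the sterol branch the 2 called genes became 4 with DESeq2, 4 with the likelihood ratio test, and 1 to 5 with a library left out. In the fatty acid branch the 6 called genes became 3 to 8 with a library left out. Calls over all genes ranged from 2338 (without LP replicate 2) to 3978 (DESeq2), against 3161. Insig2, Acat2, Scd1, Elovl6 and Dgat2 passed in all 15 alternatives, and no log2 fold change of a called gene changed sign. Over all member fits 559 kept their call, 20 gained and 15 lost one.

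The labels give both fractions replicates 1 to 4, and the sample descriptions give both libraries of a replicate a number in common, but what it stands for, such as a shared animal, is not stated, so the block was kept as an alternative. Deviations of equally numbered libraries correlated at 0.0618 to 0.148, 2 of 4 pairs exceeded 0.1, and 7 of 8 libraries correlated best with their own number. With a replicate block 12 genes were called, 9 of them among the 10. Dhcr7, Fads1 and Fads2 were added at log2 fold changes of 1.77, 2.53 and 2.97, Dgat1 was lost (0.99), and 3027 genes were called in all. Among genes not called, Fdps, Acly and Elovl1 passed with DESeq2. A count was worth 0.139 to 0.263 CPM, and Mvk, Acacb and Thrsp had libraries at or near 0 counts.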
